A study of Sus scrofa with 11 samples.

Results

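The prostaglandin synthesis and receptor genes studied here were the 10 genes PTGS1, PTGS2, PTGES, PTGES2, PTGES3, PTGDS, PTGIS, HPGD, PTGER2 and PTGER4, chosen by symbol and each found once among the 30376 genes measured. RNA from full-thickness skin wounds of female Yucatan minipigs was sequenced on day 10 after wounding, with 1 library per wound. The diabetic group was 7 wounds of 1 minipig given streptozotocin, a toxin of the insulin-producing beta cells, by vein at 6 months of age. That animal received insulin, which was stopped before it was wounded 60 days after induction. The non-diabetic group was 4 wounds of 1 minipig without streptozotocin, whose age the sources used here do not give. With 1 minipig per group, diabetes and animal cannot be told apart. Wounds of 1 animal served as replicates, so every p-value below measures a difference between the wounds of these animals.

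Prostaglandins are short-lived lipid signals of inflammation, pain, blood flow and tissue repair. Phospholipases A2 free arachidonic acid from membranes, the cyclooxygenases PTGS1 and PTGS2 turn it into prostaglandin H2, and terminal synthases make prostaglandin E2, prostaglandin D2, prostacyclin or thromboxane from that intermediate. Prostaglandin E2 acts on cells through receptors such as PTGER2 and PTGER4, which raise cyclic AMP, and HPGD starts its breakdown. In skin, PTGS1 is known as the steadily expressed cyclooxygenase and PTGS2 as the form induced by injury and cytokines.

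Values are FPKM, read counts divided by gene length and by a scaling divisor of each library, so levels of different genes are compared per length. A call needed a log2 fold change above 0.5 in size and an adjusted p below 0.05 (limma). The scale was log2(FPKM + 0.5), where 0.5 is a pseudocount that draws low values together and can make the fold change of a low gene smaller. The fit covered the 13956 genes with at least 0.5 FPKM in at least 4 libraries, and all 10 prostaglandin genes were among them. Diabetic replicate 4 and non-diabetic replicate 1 stood apart from the other wounds. Their keratinocyte markers (13 of 15 listed genes found) summed to 50.9 and 299 FPKM, against 2424 to 6715 FPKM in the other diabetic and 1572 to 2954 FPKM in the other non-diabetic wounds. KRT5, the basal keratin and the most abundant of these markers, was at 29.2 and 211 FPKM in these wounds, the lowest level of each group. They are called the wounds with little epidermis below. Diabetic replicate 3 alone held skeletal muscle transcripts, with 6 markers summing to 1713 FPKM. Results for the prostaglandin genes are given with all wounds and, where it matters, without diabetic replicate 4 and non-diabetic replicate 1. In a bulk sample, fewer cells of a type and less RNA per cell cannot be told apart.

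Of the 10 prostaglandin genes, 1 was called higher in diabetic wounds by limma, PTGS1, and 0 were called lower. An unadjusted p under 0.05 was reached by 2 of the 10, PTGS1 and PTGES, and by 18.4% of all genes tested. A call, which needed the adjusted p and the fold change above, was reached in the higher direction by 1.35% of all genes tested and in the lower by 1.66%. In 1 of the 10, again PTGS1, every diabetic wound lay above every non-diabetic wound, an arrangement seen in 2.69% of all genes tested, and in the other 9 the groups overlapped. The log2 fold change was positive for 6 genes and negative for 4. The median over the 10 was 0.095, beside 0.014 over all genes tested.

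**Figure D1:**
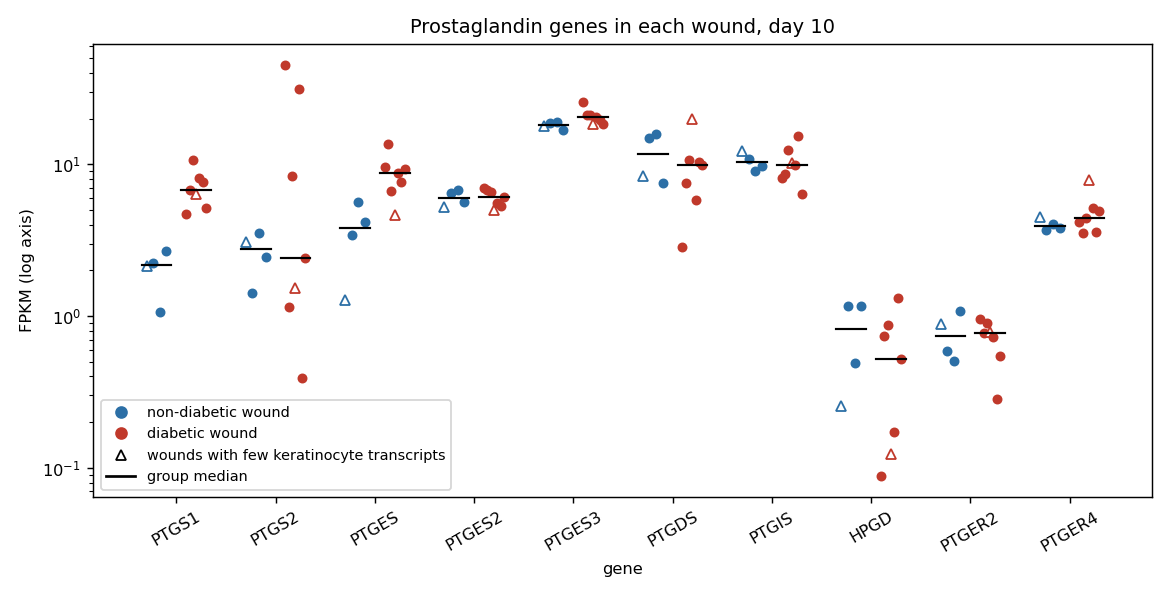
FPKM (log axis) of the 10 prostaglandin genes in each of the 7 diabetic (red) and 4 non-diabetic (blue) wounds, with group medians as bars and open triangles for the wounds with few keratinocyte transcripts. PTGS1 is the gene whose groups do not overlap, and the diabetic wounds span 0.390 to 45.3 FPKM for PTGS2.

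**Figure D2:**
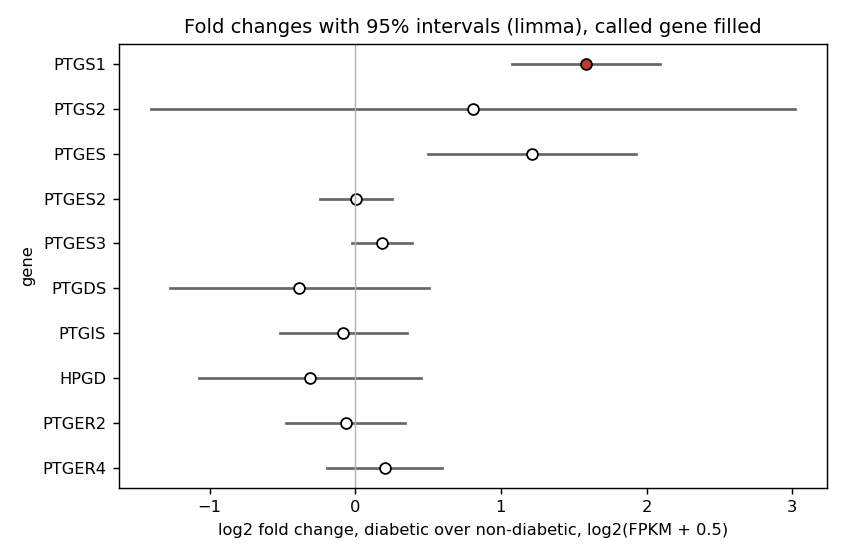
Log2 fold change of diabetic over non-diabetic wounds for the 10 prostaglandin genes on the log2(FPKM + 0.5) scale, with limma's 95% interval. The filled point is the called gene, PTGS1, and the widest interval, from -1.40 to 3.02, belongs to PTGS2.

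In the diabetic minipig PTGS2 varied far more between wounds than PTGS1, whereas in the non-diabetic minipig their coefficients of variation were close. The bases just upstream of their annotated starts are shown with those of PTGES, the third member that the results turn on, so that their start regions can be read side by side. The windows are 250 bases long in Sscrofa11.1, on the strand of the gene. They lie at chr1:262455856-262456105 (plus strand) for PTGS1, at chr9:127858867-127859116 (minus strand) for PTGS2 and at chr1:269924482-269924731 (minus strand) for PTGES. Capitals mark matches to the motifs searched on both strands. The TATA box was searched as the letters TATAAA, the GC box, known as a site of Sp-type factors, as the letters GGGCGG, and the E box, known as a site of helix-loop-helix factors, as the letters CACGTG. The full cyclic AMP response element was searched as TGACGTCA, the site of AP-1 factors as TGANTCA, and the CCAAT box as the letters CCAAT. The kappa B box was searched in a form narrower than its usual consensus, so other forms of that consensus were not counted.
PTGS1: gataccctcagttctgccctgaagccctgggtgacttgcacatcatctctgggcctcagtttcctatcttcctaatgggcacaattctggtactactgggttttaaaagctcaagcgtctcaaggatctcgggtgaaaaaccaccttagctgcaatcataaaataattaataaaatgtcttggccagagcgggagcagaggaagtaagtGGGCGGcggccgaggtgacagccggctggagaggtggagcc
PTGS2: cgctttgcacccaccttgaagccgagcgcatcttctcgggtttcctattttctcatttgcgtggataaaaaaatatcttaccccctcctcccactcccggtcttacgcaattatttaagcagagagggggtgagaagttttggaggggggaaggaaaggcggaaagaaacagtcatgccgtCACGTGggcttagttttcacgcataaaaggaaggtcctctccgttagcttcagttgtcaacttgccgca
PTGES: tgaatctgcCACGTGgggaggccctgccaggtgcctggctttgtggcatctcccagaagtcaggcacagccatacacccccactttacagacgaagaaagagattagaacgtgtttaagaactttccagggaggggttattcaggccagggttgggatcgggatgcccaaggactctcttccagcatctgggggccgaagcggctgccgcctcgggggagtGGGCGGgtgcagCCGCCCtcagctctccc

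The PTGS1 window held 1 GC box, from base -41 to base -36 counted back from the start. The PTGS2 window held 1 E box, from -69 to -64. In PTGES there were 2 GC boxes, from -29 to -24 and, on the other strand, from -17 to -12, and 1 E box from -241 to -236. GC boxes are common, being present in 44.4% of the 20664 promoters of the same length, and E boxes in 6.16%. The letters searched for the CCAAT box, TATA box, cyclic AMP response element, AP-1 and kappa B were in none of these 3 windows. In the same order, they were present in 32.0%, 10.4%, 1.63%, 5.48% and 0.411% of all promoters. The GC content was 51.2% for PTGS1, 49.6% for PTGS2 and 60.8% for PTGES, beside a median of 57.2%. A match is a match of letters and says nothing of binding. Only these exact letters were searched, so shorter or variant forms of a motif were not counted.

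PTGS1, which encodes the cyclooxygenase present in most tissues, lies on chromosome 1 from 262456106 to 262482159. Diabetic replicates 1 to 7 had 4.68, 6.75, 10.7, 6.34, 8.13, 7.59 and 5.13 FPKM. Non-diabetic replicates 1 to 4 had 2.14, 2.22, 1.06 and 2.68 FPKM. The lowest diabetic wound was thus above the highest non-diabetic one, and the wounds with little epidermis lay inside the range of their own groups. The mean in diabetic wounds was 3.48 times that in non-diabetic wounds, and the difference on the log2 scale was 1.58 (95% interval 1.07 to 2.09, adjusted p = 0.00389, limma). Between 351 and 1118 reads per diabetic and 98 and 277 reads per non-diabetic wound stood behind these values. Leaving out diabetic replicate 4 and non-diabetic replicate 1 gave a log2 fold change of 1.64 (adjusted p = 0.0203, limma), in a fit that called 0.77% of the genes higher. The call held in each of the 11 fits that left out 1 wound, with log2 fold changes from 1.37 to 1.71. Library names begin with L or R, letters whose meaning is not given. PTGS1 had a log2 fold change of 1.69 among R-named wounds (adjusted p = 0.0289, limma) and 1.48 among the 3 diabetic and 2 non-diabetic L-named wounds, where it was not called (adjusted p = 0.171, limma).

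Several cell types of a wound use PTGS1, among them macrophages, mast cells and platelets, and their marker lists were read beside it. Of 15 monocyte and macrophage markers, 4 were called, all of them higher in diabetic wounds, with a median log2 fold change of 0.58 over the list. In the same 4 every diabetic wound lay above every non-diabetic wound, an arrangement seen in 2.69% of all genes tested. The groups overlapped in the uncalled markers, among them CD68 (log2 fold change 0.42), CSF1R (0.28) and MSR1 (-0.29), the only negative of the 15. The share of all genes called higher was 1.35%, as above, and the median log2 fold change over all genes tested was 0.014. The called markers included CD14, the endotoxin coreceptor (log2 fold change 0.76), and ITGAM, an integrin of myeloid cells (1.22). The others called were MRC1, the mannose receptor (0.73), and MARCO, a scavenger receptor (1.80). Without the wounds with little epidermis CD14 was no longer called (adjusted p = 0.0918, limma), and the other 3 were. The list summed to 913 to 1961 FPKM in diabetic and 600 to 1082 FPKM in non-diabetic wounds when LYZ, its most abundant gene, was left out. LYZ itself was at 38.9 and 57.9 FPKM in the wounds with little epidermis and reached 2263 and 1432 FPKM in other diabetic and non-diabetic wounds. Of 6 mast cell markers found, 4 passed the filter and 0 were called. Of the 4, 1, FCER1A, had an unadjusted p under 0.05 (limma), beside 18.4% of all genes tested. The 6 mast cell markers summed to 4.55 to 15.5 FPKM in diabetic and 4.20 to 7.31 FPKM in non-diabetic wounds. CPA3, a protease that defines these cells, was listed at 0 in every wound. Of 7 platelet and megakaryocyte markers, 3 passed the filter and 0 were called or had an unadjusted p under 0.05 (limma), with sums of 3.40 to 6.26 and 4.29 to 5.21 FPKM. Of 10 endothelial markers 1 was called higher, beside the 1.35% of all genes tested, and the median log2 fold change of that list was 0.0040. Of 8 smooth muscle and pericyte markers 1 was called lower, beside 1.66% of all genes tested, and of 10 fibroblast markers 0 were called. The part of the RNA of macrophages or of any other cell type in the PTGS1 difference was not tested.

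PTGS2, the inducible cyclooxygenase gene, lies on chromosome 9 from 127850164 to 127858866. Diabetic replicates 1 to 7 had 45.3, 1.14, 8.37, 1.53, 31.5, 0.390 and 2.43 FPKM. The non-diabetic wounds had 3.08, 1.43, 3.51 and 2.47 FPKM. In the diabetic minipig, replicates 1, 3 and 5 lay above all non-diabetic wounds and replicates 2 and 6 lay below all of them, so the groups overlapped on both sides. The highest diabetic wound had 116 times the level of the lowest, from 37 to 5852 reads, against 2.46 times in the non-diabetic minipig. The coefficient of variation was 139% in diabetic and 34.4% in non-diabetic wounds, whereas for PTGS1 it was 28.8% and 33.8%. PTGS2 had a log2 fold change of 0.81 with a standard error of 1.01 (95% interval -1.40 to 3.02, adjusted p = 0.728, limma), and a change of severalfold in either direction was not detectable with this spread. Single wounds moved the value: it was 0.29 without diabetic replicate 1, 0.38 without replicate 5 and 1.24 without replicate 6. It was 1.73 among L-named and 0.066 among R-named wounds, and it was called in none of these fits. PTGS2 overlaps the first part of PLA2G4A, a phospholipase gene on the opposite strand, and the strand setting of the read counting is not given in the sources used here. PLA2G4A had 1.23 to 3.57 FPKM over all wounds.

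The balance of the cyclooxygenase genes differed widely from wound to wound. PTGS1 made up 9.35%, 85.5%, 56.1%, 80.5%, 20.5%, 95.1% and 67.9% of their summed FPKM in diabetic replicates 1 to 7. In non-diabetic replicates 1 to 4 it made up 41.1%, 60.9%, 23.2% and 52.0%. Thus PTGS1 was the larger part in 5 of the 7 diabetic wounds and PTGS2 in replicates 1 and 5. The log2 ratio of PTGS1 to PTGS2 was 0.47 ± 2.26 (SD, n = 7) in diabetic and -0.30 ± 0.80 (SD, n = 4) in non-diabetic wounds. Its difference of 0.77 was smaller than the spread between diabetic wounds (two-sided exact permutation test over 330 splits, p = 0.524, smallest possible p 0.00303). An unequal change of the cyclooxygenase genes was therefore not shown. Their summed level ran from 7.55 to 50.0 FPKM in diabetic wounds and from 3.65 to 5.22 FPKM in non-diabetic wounds, without overlap. The sum holds PTGS1, which by itself did not overlap between the groups, so this is not a separate result. PTGS2 by itself overlapped.

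**Figure D3:**
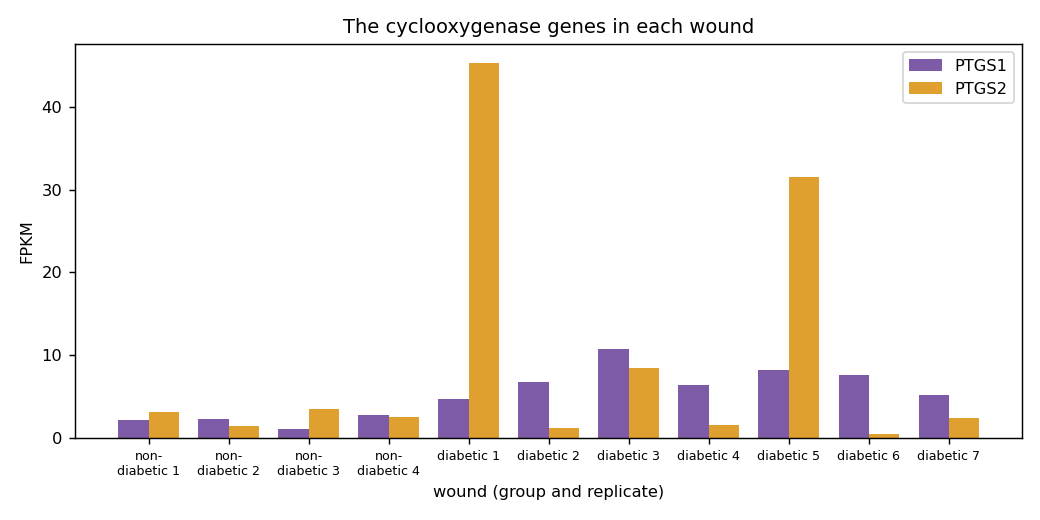
FPKM of PTGS1 (purple) and PTGS2 (orange) in each wound, 4 non-diabetic and 7 diabetic. PTGS1 runs from 4.68 to 10.7 FPKM in diabetic wounds, while PTGS2 stands at 45.3 and 31.5 FPKM in diabetic replicates 1 and 5 and at 0.390 FPKM in replicate 6.

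PTGES encodes the inducible, microsomal prostaglandin E synthase that works with PTGS2, and it lies on chromosome 1 from 269911785 to 269924481. Diabetic replicates 1 to 7 had 9.58, 13.5, 6.70, 4.64, 8.71, 7.68 and 9.29 FPKM. The non-diabetic wounds had 1.28, 3.40, 5.68 and 4.15 FPKM. A single wound, diabetic replicate 4 with little epidermis, kept the groups from separating, since it lay below non-diabetic replicate 3. The lowest value of all belonged to non-diabetic replicate 1, the other wound with few keratinocyte transcripts. The difference on the log2 scale was 1.22 (95% interval 0.50 to 1.93), which did not pass the threshold (adjusted p = 0.0665, limma). Without diabetic replicate 4 it was 1.34 and was called (adjusted p = 0.0409, limma), and without non-diabetic replicate 1 it was 0.86 and was not (adjusted p = 0.159, limma). Without both wounds PTGES ran from 6.70 to 13.5 FPKM in 6 diabetic and from 3.40 to 5.68 FPKM in 3 non-diabetic wounds. That these ranges do not overlap follows from leaving out diabetic replicate 4, so it is not a separate result. The share of all genes that separate in this smaller set was not counted. In it the log2 fold change of PTGES was 0.98 (adjusted p = 0.0558, limma). With library weights it was 0.99 and was called (adjusted p = 0.0353, limma), and over all alternatives the adjusted p ran from 0.0353 to 0.606. PTGES had a log2 fold change of 1.93 among L-named and 0.55 among R-named wounds, called in neither (adjusted p = 0.168 and 0.232, limma). Of the 13 keratinocyte markers 1 was called between the groups, beside 3.0% of all genes tested. It was KRT15, another basal keratin, at a log2 fold change of 2.50 (adjusted p = 0.0388, limma). Its groups overlapped, and it was not called without the wounds with little epidermis (adjusted p = 0.0892, limma). Unlike the summed markers, KRT15 was not lowest in those wounds, at 6.83 and 1.81 FPKM against group minima of 5.76 and 0.679 FPKM. The part of keratinocyte RNA in the PTGES values was not tested. From these same wounds the study reported both PTGES and PTGS1 as upregulated, in its account of arachidonic acid metabolism and biological oxidation. Its differential genes came from another test, DESeq2 on raw counts, while limma on FPKM did not call PTGES here. The direction of PTGES and PTGS1 here is not independent of that report.

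The other prostaglandin E synthase genes had fold changes closer to 0, and neither was called. PTGES2, a membrane-associated synthase gene on chromosome 1 from 268585725 to 268591356, had 4.99 to 6.97 FPKM in diabetic and 5.20 to 6.71 FPKM in non-diabetic wounds. Limma gave it a log2 fold change of 0.0055, with a 95% interval of -0.24 to 0.25 that leaves out any difference of the size seen for PTGS1. PTGES3, on chromosome 5 from 22000335 to 22022830, encodes p23, a partner of the chaperone Hsp90 that also has prostaglandin E synthase activity. It was the most abundant of the 10 genes, with 18.3 to 25.5 FPKM in diabetic and 16.7 to 18.9 FPKM in non-diabetic wounds. The fold change of PTGES3 was 0.18 on the log2 scale (95% interval -0.024 to 0.39, adjusted p = 0.335, limma). PTGES3 and PTGES2 varied least between diabetic wounds, with coefficients of variation of 11.8% and 13.0%. In the non-diabetic minipig PTGES3 had 5.44% and PTGES2 11.6%, with PTGER4 between them at 8.59%.

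For PTGIS and PTGDS, synthases of other prostanoids, the groups overlapped and neither gene was called. PTGIS, the prostacyclin synthase of vessel walls and fibroblasts, is on chromosome 17 from 51153151 to 51200515 and had 6.36 to 15.3 FPKM in diabetic and 9.04 to 12.2 FPKM in non-diabetic wounds. On the log2 scale the difference was -0.081 (95% interval -0.52 to 0.35, adjusted p = 0.873, limma). PTGDS, the lipocalin-type prostaglandin D synthase, which also carries small hydrophobic molecules, is on an unplaced scaffold from 888420 to 891225. Its levels in diabetic replicates 1 to 7 were 2.86, 7.46, 10.7, 19.7, 5.80, 10.4 and 9.82 FPKM. In the non-diabetic wounds they were 8.41, 14.9, 15.7 and 7.56 FPKM. The highest PTGDS level was in the diabetic wound with the fewest keratinocyte transcripts, whereas the non-diabetic wound with few of them was not the highest of its group. PTGDS had a log2 fold change of -0.39 (95% interval -1.27 to 0.50, adjusted p = 0.671, limma) and -0.71 without these wounds (adjusted p = 0.419, limma).

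HPGD encodes the dehydrogenase that inactivates prostaglandin E2 and lies on chromosome 14 from 15718261 to 15773534. Diabetic replicates 1 to 7 had 0.0881, 0.743, 0.868, 0.124, 0.173, 1.31 and 0.524 FPKM. The non-diabetic wounds had 0.257, 1.17, 0.490 and 1.16 FPKM. Both wounds with little epidermis were low, and so were diabetic replicates 1 and 5, the wounds with the highest PTGS2. Diabetic replicate 3, the next in PTGS2, had the second highest HPGD of its group, and replicate 6, with the lowest PTGS2, had the highest. HPGD was low throughout, with 24 to 262 reads per diabetic and 56 to 344 reads per non-diabetic wound, and its log2 fold change was -0.31 (95% interval -1.08 to 0.45, adjusted p = 0.688, limma).

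The receptors of prostaglandin E2 that raise cyclic AMP were measured at different levels. PTGER4, on chromosome 16 from 25670832 to 25686556, had 4.13, 3.54, 4.45, 7.93, 5.17, 3.58 and 4.93 FPKM in diabetic replicates 1 to 7. The non-diabetic wounds had 4.47, 3.69, 4.02 and 3.82 FPKM. In each group the highest level was in the wound with the fewest keratinocyte transcripts. The difference of 0.20 on the log2 scale did not pass the threshold (95% interval -0.19 to 0.60, adjusted p = 0.605, limma). PTGER2, on chromosome 1 from 181993961 to 182009959, had only 0.283 to 0.953 FPKM in diabetic and 0.504 to 1.09 FPKM in non-diabetic wounds, with a log2 fold change of -0.067 (95% interval -0.48 to 0.34, adjusted p = 0.893, limma). It overlaps PTGDR, a prostaglandin D2 receptor gene on the same strand with 0.129 to 0.327 FPKM, and reads in the shared stretch cannot be assigned to either.

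**Figure D4:**
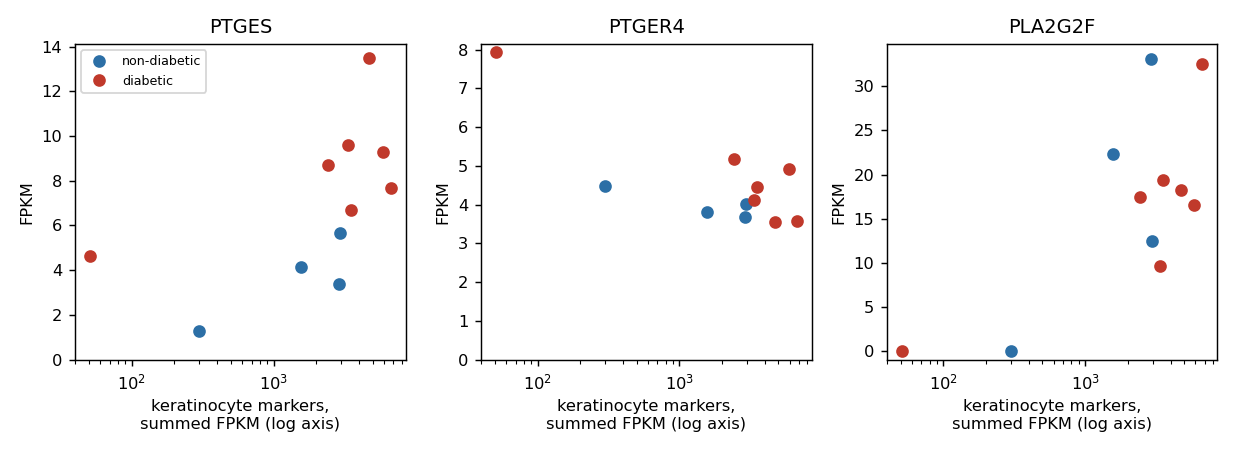
FPKM of PTGES, PTGER4 and the epidermal phospholipase PLA2G2F in each wound against the summed FPKM of 13 keratinocyte markers (log axis), diabetic in red and non-diabetic in blue. The wounds at 50.9 and 299 FPKM of keratinocyte markers have the lowest PTGES and the highest PTGER4 of their groups, and PLA2G2F is at 0 in both.

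Ordered by the median level per length, the 10 genes ran in the diabetic wounds from PTGES3 (20.3 FPKM) through PTGIS (9.95), PTGDS (9.82), PTGES (8.71), PTGS1 (6.75), PTGES2 (6.08), PTGER4 (4.45) and PTGS2 (2.43) to PTGER2 (0.774) and HPGD (0.524). PTGES3 and PTGIS were the only neighbours in this order whose ranges over wounds did not overlap. In the non-diabetic wounds the order of medians was PTGES3 (18.2 FPKM), PTGDS (11.7), PTGIS (10.3), PTGES2 (6.03), PTGER4 (3.92), PTGES (3.78), PTGS2 (2.77), PTGS1 (2.18), HPGD (0.824) and PTGER2 (0.736). There the ranges of PTGES3 and PTGDS, of PTGIS and PTGES2, and of PTGES2 and PTGER4 did not overlap, and those of all other neighbours did. PTGS1 and PTGES thus stood below PTGES2 and PTGER4 in the non-diabetic order and above both in the diabetic order.

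The rest of the pathway was read from a list of other genes, of which 37 were found under a symbol of their own and 28 passed the filter. Of the 28, 1 was called higher, PLA2G12A, and 0 lower (limma), beside 3.0% of all genes tested called in either direction. At an unadjusted p under 0.05 there were 6, PLA2G12A, TBXAS1, SLCO2A1, ABCC4, PTGFRN and MBOAT7, beside the 18.4% of all genes tested. The median log2 fold change was 0.11, beside 0.014 over all genes tested, and 18 of the 28 were positive. PLA2G12A encodes a secreted phospholipase A2 and lies on chromosome 8 from 112483322 to 112512520. It had 16.6, 17.8, 17.9, 19.7, 18.8, 16.5 and 17.9 FPKM in diabetic replicates 1 to 7. The non-diabetic wounds had 13.6, 11.8, 10.2 and 12.04 FPKM. The groups did not overlap, and the wounds with little epidermis were the highest of their groups. The difference on the log2 scale was 0.57 (95% interval 0.38 to 0.76, adjusted p = 0.00511, limma) and 0.61 without those wounds (adjusted p = 0.0144, limma).

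Among the other 10 phospholipases A2 tested, the largest difference in size was that of PLA2G2D, a secreted form, with a log2 fold change of -1.17 that did not pass the threshold (adjusted p = 0.337, limma). It spanned 0.202 to 3.59 FPKM in diabetic and 1.03 to 8.58 FPKM in non-diabetic wounds. PLA2G4B, the most abundant, had 7.81 to 54.5 FPKM in diabetic and 8.03 to 44.7 FPKM in non-diabetic wounds and was lowest in the same wounds with little epidermis. PLA2G2F, a secreted phospholipase of the upper epidermis, was listed at 0 in both of these and stood at 9.62 to 32.6 FPKM in the other diabetic and 12.5 to 33.1 FPKM in the other non-diabetic wounds. This gene was chosen after its values were seen. PLA2G5 had too few reads to pass the filter, being listed at 0 in 6 of 7 diabetic wounds and at 0.111 to 0.334 FPKM in the non-diabetic wounds, and it too was chosen after its values were seen.

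No other synthase, transporter, receptor or re-esterification gene of the list was called. TBXAS1, the thromboxane synthase, had the largest difference among the synthases, with 1.74 to 3.30 FPKM in diabetic and 1.11 to 2.42 FPKM in non-diabetic wounds, at a log2 fold change of 0.64 that did not pass (adjusted p = 0.101, limma). AKR1B1, an aldose reductase that can make prostaglandin F2 alpha, was the most abundant, at 16.9 to 107 FPKM and 22.7 to 47.3 FPKM. HPGDS, the haematopoietic prostaglandin D synthase, lay under the filter, with 0 to 0.348 FPKM in diabetic and 0.374 to 0.586 FPKM in non-diabetic wounds, and was picked out after its values were seen. SLCO2A1, the prostaglandin uptake carrier and the most abundant gene of transport and degradation, had a log2 fold change of 0.56 (adjusted p = 0.122, limma). ABCC4, an exporter, had one of -0.50 (adjusted p = 0.136, limma) and was named for being called under an alternative. Among the 4 other receptors tested, TBXA2R, the thromboxane receptor, had the largest log2 fold change, 0.36 (adjusted p = 0.430, limma), and PTGFR, the prostaglandin F receptor, was the most abundant at 8.23 to 20.8 FPKM over all wounds. PTGFRN, a membrane partner of that receptor, had a log2 fold change of -0.54 (adjusted p = 0.189, limma). MBOAT7, which returns arachidonic acid to phosphatidylinositol, had one of 0.32 (adjusted p = 0.201, limma).

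**Figure D5:**
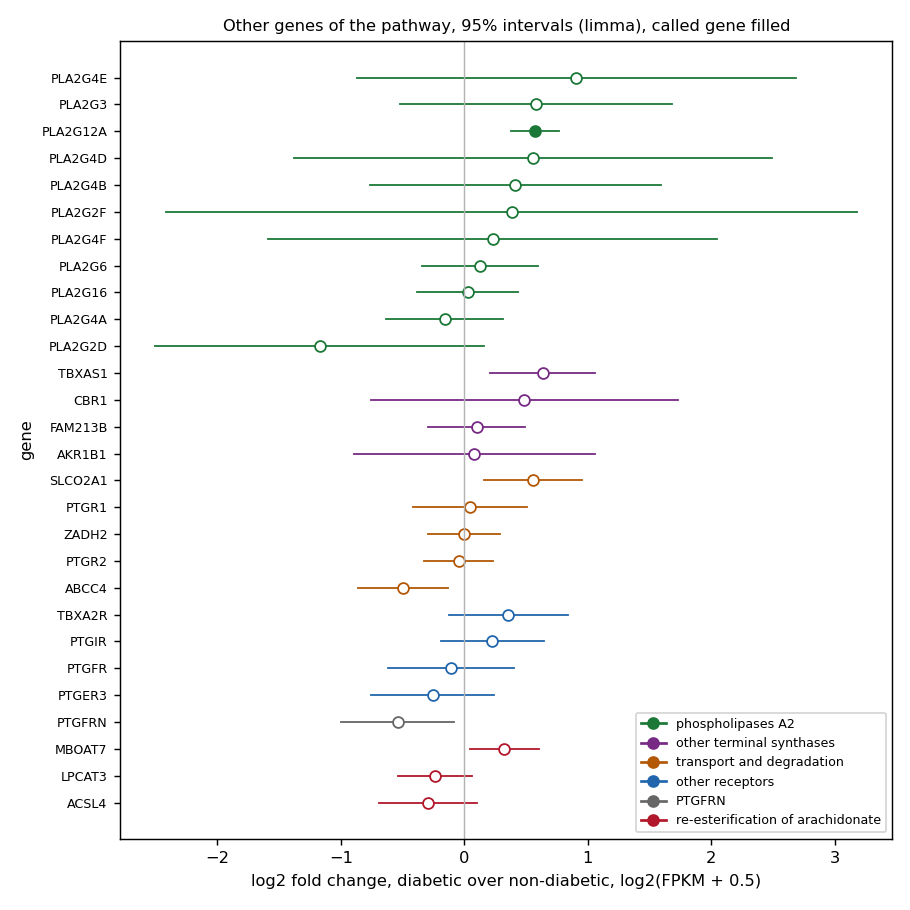
Log2 fold change of diabetic over non-diabetic wounds, on the log2(FPKM + 0.5) scale with limma's 95% intervals, for the 28 other pathway genes that passed the filter, coloured by role. The filled point is PLA2G12A at 0.57, and the phospholipases of the epidermis have the widest intervals.

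Genes that cyclic AMP signalling is known to induce were read as a group downstream of PTGER2 and PTGER4. Of the 10 that passed the filter, 0 were called in either direction (limma), beside 3.0% of all genes tested. An unadjusted p under 0.05 was reached by 1, PER1, a circadian clock gene, beside 18.4% of all genes tested. The median log2 fold change was 0.24, beside 0.014 over all genes tested. NR4A3, a nuclear receptor gene, had the largest log2 fold change, 1.04 (adjusted p = 0.423, limma). It had 0.868 to 12.1 FPKM in diabetic and 0.459 to 4.06 FPKM in non-diabetic wounds. DUSP1, a phosphatase that restrains MAP kinases and the most abundant of the group, had a log2 fold change of -0.039 (adjusted p = 0.973, limma).

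The genes whose deviations from their group means most resembled those of PTGS1, PTGS2 and PTGES over the 11 wounds are given as a description, without a test. For PTGS2 they were IL23A, a cytokine subunit (Pearson's r = 0.95), KLF6, an injury-induced transcription factor (0.95), and LIPG, the endothelial lipase (0.94). IL23A stood at 5.43 and 6.47 FPKM in diabetic replicates 1 and 5, against a diabetic median of 0.0541 FPKM. For PTGS1 they were GLYCTK (0.89), MAD2L2 (0.88) and ANKRD29 (0.88), and for PTGES they were ATMIN (0.98), CD274 (0.96), which encodes the immune checkpoint ligand PD-L1, and SFT2D2 (0.96). None of these 9 genes was called in the comparison of the groups, beside 3.0% of all genes tested. Group means had been removed before the ranking.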

How the data were processed

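RNA from 11 wound biopsies (7 diabetic, 4 non-diabetic, 1 minipig per group) was made into poly(A), strand-marked libraries. Per the submitters' processing notes the authors used fastp, HISAT2 2.2.1, StringTie 2.2.3, featureCounts 2.0.6 and Sscrofa11.1, and the deposited values are FPKM. The FPKM formula and annotation release are not given in the sources used here. Multiplied by gene length, 100% of values were whole reads within 0.05 reads, giving a depth on genes of 28314785 to 40168372 reads (diabetic) and 32961018 to 36872400 reads (non-diabetic). On a gene of 2 kb, 1 read was 0.0112 to 0.0194 FPKM. The library divisor behind the values was 0.854 to 1.18 times the reads on genes, so it was not their sum. It followed the size factor, the median over genes of a library's reads against the mean of all libraries. The ratio of divisor to size factor was 0.995 to 1.005 of its average in every library. The deposited table has no sample columns left unused.

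log2(FPKM + 0.5) was compared between groups with limma 3.58.1 (lmFit, eBayes with trend) in R 4.3.3 over the 13956 genes with at least 0.5 FPKM in at least 4 libraries, with Benjamini-Hochberg adjustment over all of them. limma was the main test because FPKM are not counts, and its step was tested on simulated data. For the PTGS1 to PTGS2 ratio an exact permutation test, two-sided, was used. Tables and figures used matplotlib 3.10.9, SciPy 1.17.1, pandas 2.3.3 and numpy 2.4.6 in Python 3.11.15.

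The members, the lists and the tests were chosen with earlier results of these data known. The text names all 10 members. From the pathway and cyclic AMP lists it names every called gene, the most abundant of each role and the largest difference of each role. From marker lists it names called or most abundant genes that bear on a member, and FCER1A, CPA3, CD68, CSF1R and MSR1 besides. For PTGS1, PTGS2 and PTGES it names the 3 genes of highest correlation. AKR1C1, a symbol carried by 2 genes, was not used. Gene positions are those of the files, and sequences come from the RefSeq Sscrofa11.1 assembly, from the 20664 genes with a full window of 250 bases. Alternatives changed the pseudocount, filter, scaling, test, spread estimate, weights, replicate block, library letter and wounds included.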

Additional observations from a re-analysis of the deposited data

Results flagged for a closer look

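Among 20 tests (10 genes in each of 2 groups) of whether the highest or lowest wound stood far from the rest of its group, 2 did, and chance gives about 1 in 20. PTGES3 in diabetic replicate 1 was the highest of the 7 at 25.5 FPKM, with the gap to the next wound being 0.607 of the group's range. PTGER4 in diabetic replicate 4, the wound with the fewest keratinocyte transcripts, was the highest at 7.93 FPKM, with a gap of 0.628 of the range. Without that wound PTGER4 ran from 3.54 to 5.17 FPKM in diabetic wounds, and its log2 fold change was 0.13 when non-diabetic replicate 1 was left out as well (adjusted p = 0.681, limma).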

How the results depend on the processing

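PTGS1 kept its direction in 25 alternatives and its call in 23 of them. It was not called with the replicate block (1.58, adjusted p = 0.291, limma) or among the L-named wounds alone (1.48). Wounds of the same number correlated at -0.27, 0.22, 0.068 and -0.48 in their deviations, and none correlated best with its own number. Numbers 1 and 4 each set a wound with little epidermis against one without that trait, so this check cannot exclude that the numbers pair the wounds. With the block 11 genes were called higher and 5 lower over all genes, against 188 and 231 without it, and 0 of the 10 prostaglandin genes and 0 of the pathway genes. PLA2G12A had 0.58 with the block (adjusted p = 0.324) and 0.45 among L-named wounds (adjusted p = 0.254), not called in either. The counts of genes called higher and lower were 406 and 416 with library weights, 3 and 4 among L-named and 726 and 626 among R-named wounds, and 106 and 81 without both wounds of little epidermis. Leaving out 1 wound gave 104 to 236 higher and 75 to 247 lower, with 104 and 95 without non-diabetic replicate 3, 119 and 107 without replicate 4, 106 and 75 without replicate 1 and 122 lower without replicate 2. Prostaglandin genes called were 2 with library weights or without diabetic replicate 4 (PTGES joining PTGS1), 0 among L-named wounds, and 1 to 2 on leaving out 1 wound. Pathway genes called were 3 with library weights (PLA2G12A, TBXAS1 and ABCC4), 2 among R-named wounds, 0 among L-named wounds, and 1 to 2 on leaving out 1 wound, the second being SLCO2A1 without diabetic replicate 6. The causes were not tested.

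The PTGS1 to PTGS2 difference turned to -0.25 among L-named wounds (exact permutation p = 0.9) and ran from 0.32 to 1.38 on leaving out 1 wound. Within replicate numbers 1 to 4, as a block, it was 0.57 (exact sign-flip p = 0.625, smallest possible 0.125). Values near 0 changed sign: PTGES2 to -0.023 (library weights), -0.015 (both wounds out), -0.16 (R-named) and between -0.055 and 0.058 on leaving out 1 wound, PTGER2 to 0.12 (block), 0.16 (L-named) and between -0.17 and 0.050, PTGIS to 0.088 (R-named) and between -0.18 and 0.017, and PTGER4 to -0.012 (L-named). HPGD and PTGER2 did not pass the filter in every alternative, leaving 22 and 24 values. All 10 genes passed the filter, so the test planned for genes under it was not run.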

Other observations

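Of the 10 cyclic AMP response genes that passed the filter, 6 were highest among diabetic wounds in replicate 5, PDE4B and PDE4D in replicate 1 and PDE4A and PDE3B in replicate 4. PTGS2 was highest in replicate 1, then in replicates 5 and 3. For CREM, NR4A2, NR4A3, SIK1 and DUSP1 the same replicates stood above all other diabetic wounds, with replicate 5 first. For PER1, PDE4A, PDE4B, PDE4D and PDE3B at least 1 of these replicates lay below another diabetic wound. NR4A2, a nuclear receptor gene, had 18.3 FPKM in replicate 5, 10.9 FPKM in replicate 3 and 9.10 FPKM in replicate 1, against a diabetic median of 4.76 FPKM. These genes are described after their values were seen, and no test was made.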
